A study of Rattus norvegicus with 47 samples.

Results

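Blood gene expression was compared between male rats that had been exposed to the scent of a predator and showed a minimal behavioural response, and male rats that were never exposed. Each group held 8 rats with 1 array per rat, and the comparison used 16 of the 47 arrays of the series. The arrays were taken by their labelled group alone, so no measured value chose them, and every detected probe was examined.

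The series sorted exposed adult Sprague Dawley rats of both sexes by behaviour into minimal and extreme response classes and set them against unexposed controls that went through the same behavioural tests. From each rat, 2.5 mL of whole peripheral blood was drawn into tubes that lyse the cells and fix their RNA and kept at room temperature for 4 h, and globin messenger RNA was depleted before labelling. The other groups used here were the 8 males of extreme response, the 8 females of minimal response and 6 female controls whose arrays gave signal. The interval between exposure and blood sampling is not given in the sources used here. The design text of the series names female rats in its opening but counts both sexes, so sex was taken from the label of each array, and no probe named for Xist or a Y-linked gene of the list used was found to check it. The labels number the arrays consecutively within each group and give no chip or day, so if the arrays were run in that order a chip or day effect and the groups cannot be told apart.

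Threat activates the hypothalamus, the pituitary and the adrenal cortex, which releases corticosterone, and the sympathetic nerves and adrenal medulla, which release catecholamines. White blood cells carry the glucocorticoid receptor, a transcription factor that raises genes which damp inflammation, and adrenergic receptors that signal through cyclic AMP and its target factor CREB. Whole blood mixes red cell precursors, platelets, neutrophils, monocytes and lymphocytes, and each contributes its own messenger RNA.

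On the 16 arrays 6202 to 8770 probes were detected, and the labelled tissue was borne out by its markers. The globin gene Hba-a1, the neutrophil gene S100a8, the T cell gene Cd3d and the platelet gene Pf4 were each detected on 8 of 8 control arrays and 8 of 8 minimal arrays. The number of detected probes averaged 7228 in controls and 7519 at minimal response, a difference of 291 (two-sided exact permutation p = 0.357, adjusted p = 0.713 over 2 measures, n = 8 and 8), and the 95th percentile of raw intensity differed by -10.7 intensity units (exact permutation p = 0.916, adjusted p = 0.916). Values below are log2 intensities after background correction and normalization, a difference is minimal response minus control in log2 units with the standard error of the fit, and a probe was called where the adjusted p of limma was below 0.05. Until extreme response is taken up, the exposed rats, arrays or males below are those of minimal response.

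Minimal-response blood differed widely from control blood. Of 9416 tested probes 1405 were called (14.9%), 765 of them higher (8.12%) and 640 lower (6.8%) in the exposed males. Counted by gene symbol, 598 of 6673 genes rose (8.96%) and 516 fell (7.73%), while the median difference over all tested genes was -0.01. Most differences were modest, and the size of many depended on the background correction. Without it, 35 of the 83 called genes named here had differences smaller by over 1.5 times, none changed sign and 4 lost their call. The median size was 0.62 among probes that rose and 0.53 among those that fell, and 81 rises but 11 falls were larger than 2-fold. The 8 minimal arrays and the 8 control arrays did not overlap for 127 of the 765 probes that rose (16.6%) and for 67 of the 640 that fell (10.5%), against 199 of all 9416 probes (2.11%). In whole blood, more messenger RNA per cell and more cells of the type that carries it cannot be told apart.

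**Figure D1:**
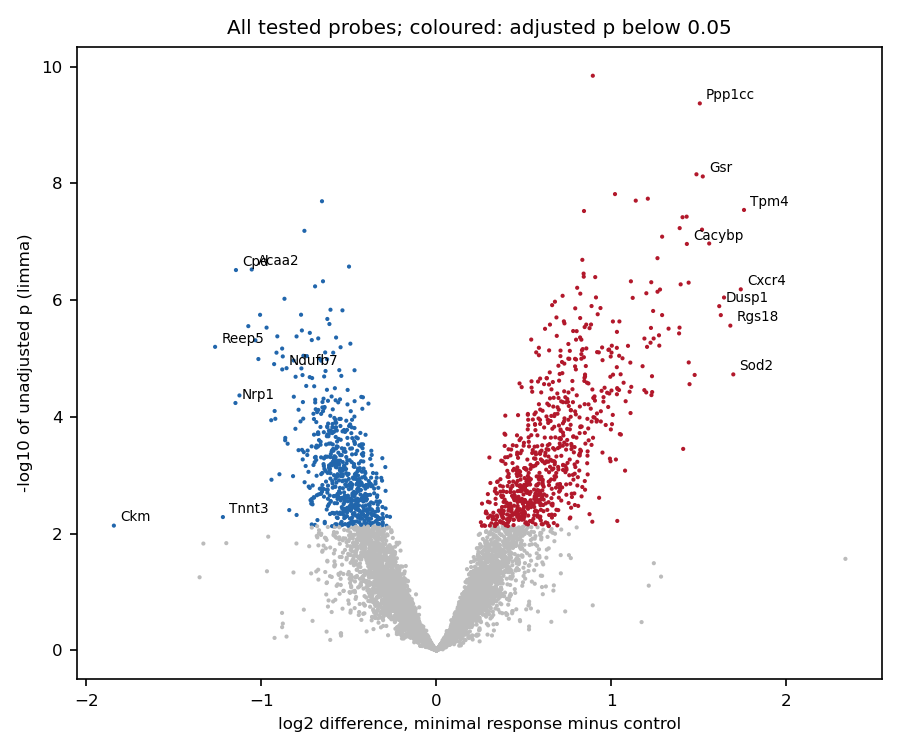
Each point is 1 of the 9416 tested probes, placed by the log2 difference between males of minimal response and control males (x axis) and by the -log10 of its unadjusted limma p (y axis). The 765 probes that rose are red, the 640 that fell are blue and the probes that were not called are grey.

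The largest rises included genes of the actin skeleton, of cell migration and of phosphatase signalling. Tpm4, a tropomyosin of the actin filaments of non-muscle cells, lay at 7.65 to 9.28 (median 8.20) in controls and 9.76 to 10.56 (median 10.16) at minimal response. The groups did not overlap, and the difference was 1.76 (SE 0.26, 3.39-fold, limma adjusted p = 2.79e-05). Cxcr4, the chemokine receptor that holds leukocytes in the bone marrow, lay at 6.09 to 8.23 (median 7.02) in controls and 7.85 to 9.78 (median 8.89) in exposed rats. It rose by 1.74 (SE 0.30, 3.34-fold, limma adjusted p = 0.000177), with the lowest exposed rat below the highest control. Ppp1cc, a catalytic subunit of protein phosphatase 1, had the smallest p of any named gene. Its values were 7.03 to 8.15 (median 7.37) in controls and 8.20 to 9.63 (median 9.11) at minimal response, without overlap, for a rise of 1.51 (SE 0.19, limma adjusted p = 2e-06).

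Further genes among the 25 largest rises had varied roles. Ptprc, which encodes the pan-leukocyte phosphatase CD45, rose by 1.44 (SE 0.29, limma adjusted p = 0.000742), and Ywhaz, a 14-3-3 adaptor protein, rose by 1.39 (SE 0.22, limma adjusted p = 4.07e-05) from an already high level of 9.24 to 10.24 (median 9.85). Rab1a, a small GTPase of transport from the endoplasmic reticulum to the Golgi, rose by 1.41 (SE 0.21), Rtn4, a reticulon that shapes the endoplasmic reticulum, by 1.52 (SE 0.24), and Atp6ap2, an accessory subunit of the vacuolar proton pump, by 1.63 (SE 0.30). The limma adjusted p was 2.98e-05 for Rab1a, 4.07e-05 for Rtn4 and 0.000298 for Atp6ap2. Rtn4 did not overlap between the groups, while Rab1a and Atp6ap2 did.

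**Figure D2:**
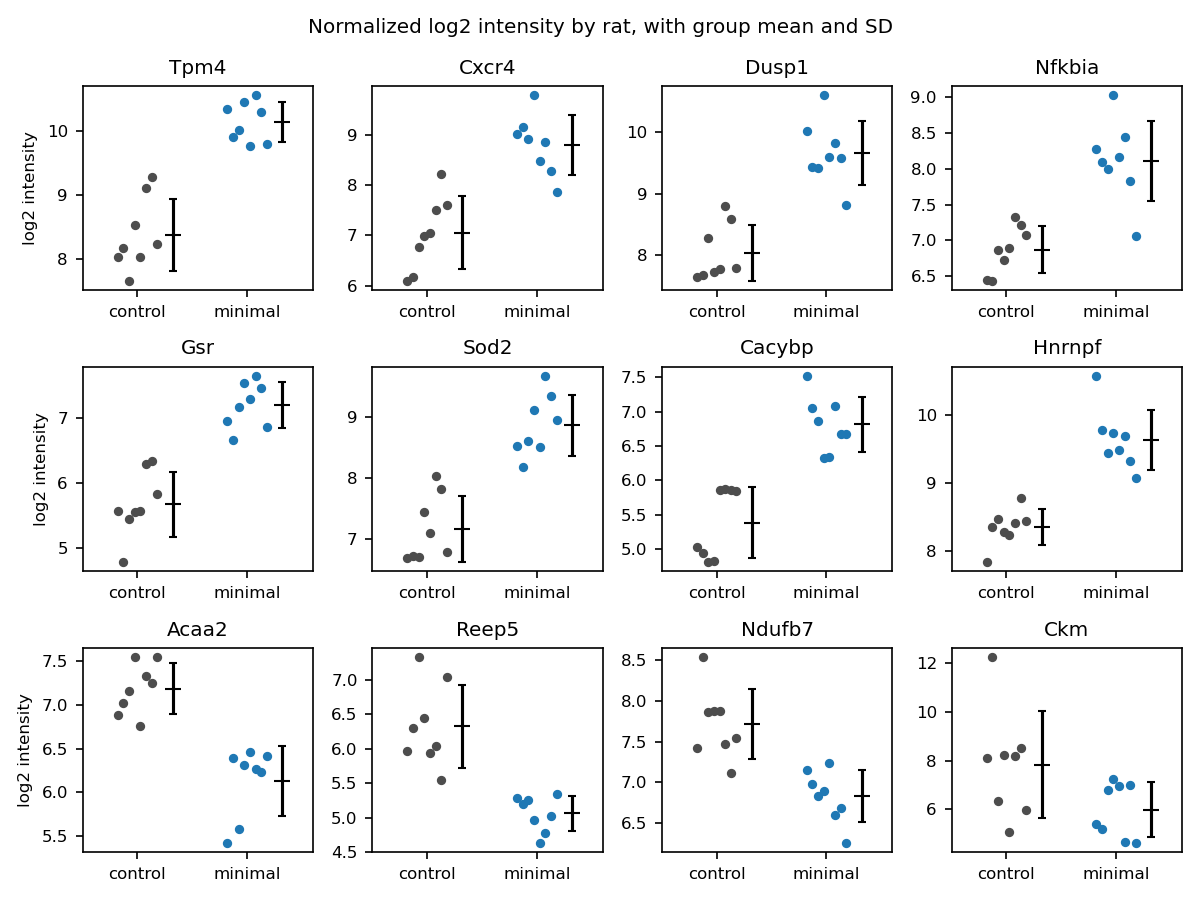
Normalized log2 intensity (y axis) of 12 genes in the 8 control males (grey) and the 8 males of minimal response (blue), 1 point per rat, with the group mean and SD in black beside the points. Tpm4, Dusp1, Gsr, Sod2, Cacybp, Hnrnpf, Acaa2 and Reep5 show no overlap, whereas in Ckm the controls are widely spread, with the highest at 12.25.

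Several genes known to be induced by glucocorticoids rose. Of 15 tested members 8 rose (53.3%, against 8.96% of all tested genes) and none fell, and the median difference was 0.55 against -0.01 over all tested genes. This list and those below were chosen with earlier results of these data known, so their shares are a description. Dusp1, the phosphatase that switches off MAP kinases, lay at 7.65 to 8.80 (median 7.79) in controls and 8.82 to 10.59 (median 9.58) in exposed rats, a rise of 1.62 (SE 0.29, 3.07-fold, limma adjusted p = 0.000254) without overlap. Nfkbia, the inhibitor that keeps NF-kB in the cytoplasm, lay at 6.43 to 7.32 (median 6.88) in controls and 7.07 to 9.02 (median 8.12) in exposed rats, a rise of 1.24 (SE 0.23, limma adjusted p = 0.000277) in which the groups overlapped. Zfp36, the RNA-binding protein tristetraprolin that speeds decay of cytokine messages, rose by 1.23 (SE 0.26, limma adjusted p = 0.00109) without overlap.

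Other members of that list rose by smaller amounts. Txnip, the inhibitor of thioredoxin, rose by 1.05 (SE 0.22, limma adjusted p = 0.00105). Anxa1, the anti-inflammatory annexin, rose by 0.73 (SE 0.18, limma adjusted p = 0.00472) with no overlap between the groups, and Tsc22d3, the leucine zipper protein GILZ, rose by 0.67 (SE 0.15, limma adjusted p = 0.00186). Other classical targets of the receptor did not pass. Fkbp5, the co-chaperone that lowers the receptor's affinity for hormone, differed by -0.24 (SE 0.16, limma adjusted p = 0.338), the transcription factor gene Klf9 by -0.21 (SE 0.20, limma adjusted p = 0.537), the clock gene Per1 by -0.02 (SE 0.17, limma adjusted p = 0.952) and the kinase gene Sgk1 by 0.33 (SE 0.15, limma adjusted p = 0.138). Of 12 tested chaperones and cofactors of the receptor itself none rose (against 8.96% of all tested genes) and 1 fell (8.33%, against 7.73%). The fall was of the corepressor gene Ncor1, by 0.71 (SE 0.25, limma adjusted p = 0.0477), a call lost without any single one of control replicates 2 to 6 or minimal replicates 1 to 6. Of 7 clock genes tested, no member was called in either direction.

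The start regions of Dusp1 and Nfkbia are printed because both genes are targets of several signalling routes that stress engages. They come from RefSeq (build GRCr8), span 300 bases around the annotated start and are written 5′ to 3′. Capitals mark matches to the cyclic AMP response element TGACGTCA or its core TGACG, which the full element holds on either strand, and to the NF-kB motif, GGGNN followed directly by TTTCC, with both strands searched. Dusp1 lies at chr10:17184603-17184902, plus strand, and Nfkbia at chr6:78597023-78597322, minus strand.
Dusp1: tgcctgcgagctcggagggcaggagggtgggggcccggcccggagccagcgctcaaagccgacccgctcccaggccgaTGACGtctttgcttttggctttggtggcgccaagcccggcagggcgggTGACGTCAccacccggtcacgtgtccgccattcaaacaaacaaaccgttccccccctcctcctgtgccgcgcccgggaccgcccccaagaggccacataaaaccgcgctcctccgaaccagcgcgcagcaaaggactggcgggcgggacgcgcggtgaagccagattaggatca
Nfkbia: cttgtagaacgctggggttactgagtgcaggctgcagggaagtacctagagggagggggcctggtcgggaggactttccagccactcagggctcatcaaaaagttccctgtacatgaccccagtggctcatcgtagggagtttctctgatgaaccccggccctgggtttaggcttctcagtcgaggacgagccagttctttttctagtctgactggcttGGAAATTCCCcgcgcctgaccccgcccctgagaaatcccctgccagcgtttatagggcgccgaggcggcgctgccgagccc
The full cyclic AMP response element stood at position -124 of Dusp1, counted from 0 at the annotated start, with a separate core at -172, and the NF-kB motif stood at -31 of Nfkbia. Among the start regions searched by gene name, no other held the full element or the NF-kB motif. Those of Zfp36, Tsc22d3 and Sod2 matched no motif searched, and no region, the printed ones included, held the glucocorticoid response element. The full element was found in 4.53% of the 508 promoters available for genes that rose, 2.77% of 433 for genes that fell, 3.17% of 5611 for all tested genes and 1.91% of all 27457 promoters. The core, alone or within the full element, was in 40.6%, 33%, 32.3% and 22% of the same sets. The NF-kB motif was in 1.57%, 1.15%, 1.76% and 1.51%, and the palindrome of the glucocorticoid response element (GNACA, any 3 bases, TGTNC) in 0.394%, 0%, 0.285% and 0.422%. Promoters of genes that rose also held more G and C (median 63.3%) than those of genes that fell (59.7%) or of all tested genes (60%), and more CpG pairs (median 25, 20 and 20), and both the element and its core contain a CpG.

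Some regulators of receptor signalling also changed. Of 24 tested genes of adrenergic and cyclic AMP signalling 5 rose (20.8%, against 8.96% of all tested genes) and 1 fell (4.17%, against 7.73%), with a median difference of 0.17. Rgs2 and Rgs18 encode proteins that shorten G protein signals, Rgs18 mainly in platelets and other blood cells. Rgs2 lay at 5.38 to 6.68 (median 5.97) in controls and 6.45 to 8.10 (median 7.40) at minimal response, a rise of 1.40 (SE 0.24, limma adjusted p = 0.000163) with overlap. Rgs18 was detected on 4 of 8 control arrays and on all 8 exposed arrays, and rose by 1.68 (SE 0.32, limma adjusted p = 0.000373) with no overlap. Without background correction its difference was 0.73 (limma adjusted p = 0.00293). Prkacb, a catalytic subunit of protein kinase A, rose by 0.73 (SE 0.16, limma adjusted p = 0.00159).

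Immediate early genes respond within minutes to many stimuli. Of 16 tested members 4 rose (25%, against 8.96% of all tested genes), among them Dusp1, and none fell, while the median difference was 0.03. The transcription factor gene Klf4 rose by 0.82 (SE 0.19, limma adjusted p = 0.00305) and its groups did not overlap. Fos, a subunit of the AP-1 factor that was chosen for mention after its values were seen, lay at 6.85 to 7.88 (median 7.23) in controls and at 6.36 to 6.55 (median 6.49) at minimal response, and the groups did not overlap. Its difference of -0.82 (SE 0.40) did not pass over the 46 arrays (limma adjusted p = 0.171), but was called when only the 24 male arrays were fitted (-0.83, limma adjusted p = 0.0312).

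Several members of a list of heat shock proteins and cochaperones rose. Of 23 tested members 9 rose (39.1%, against 8.96% of all tested genes) and 1 fell (4.35%, against 7.73%), with a median difference of 0.28. Cacybp, a partner of the ubiquitin ligase SIAH with a cochaperone fold, lay at 4.81 to 5.88 (median 5.44) in controls and 6.33 to 7.51 (median 6.77) at minimal response and rose by 1.43 (SE 0.23, limma adjusted p = 5.69e-05) without overlap. Dnaja1 and Dnaja2, cytosolic partners of Hsp70, rose by 1.11 (SE 0.23, limma adjusted p = 0.000742) and 0.91 (SE 0.16, limma adjusted p = 0.000205), and Dnaja2 did not overlap between the groups. Hspd1, the mitochondrial chaperonin Hsp60, lay at 7.17 to 7.80 (median 7.56) in controls and 8.14 to 8.81 (median 8.28) in exposed rats, without overlap, and rose by 0.83 (SE 0.17, limma adjusted p = 0.000681). Hspbp1, a factor that strips nucleotide from Hsp70 and hinders it, fell by 0.48 (SE 0.13, limma adjusted p = 0.00766).

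Hspd1 and its co-chaperonin gene Hspe1, named after its values were seen, are read in opposite directions from the same stretch of DNA. Hspe1 lay at 7.11 to 7.68 (median 7.48) in controls and 6.87 to 7.58 (median 7.25) at minimal response, and its difference of -0.21 (SE 0.12) did not pass (limma adjusted p = 0.244). The pair is shown because the start regions overlap by 211 bases, chr9:64084077-64084287, while Hspd1 rose and Hspe1 was not called. Capitals mark the heat shock element, 3 inverted repeats of the unit GAA with a spacing of any 2 bases, and in Hspe1 also the core TGACG. Hspd1 lies at chr9:64083988-64084287, minus strand, and Hspe1 at chr9:64084077-64084376, plus strand.
Hspd1: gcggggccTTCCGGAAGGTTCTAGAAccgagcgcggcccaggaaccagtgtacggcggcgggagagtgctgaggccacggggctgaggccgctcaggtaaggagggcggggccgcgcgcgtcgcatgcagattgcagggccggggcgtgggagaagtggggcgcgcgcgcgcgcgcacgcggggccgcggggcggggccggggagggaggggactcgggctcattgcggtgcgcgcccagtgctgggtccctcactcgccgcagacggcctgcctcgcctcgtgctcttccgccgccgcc
Hspe1: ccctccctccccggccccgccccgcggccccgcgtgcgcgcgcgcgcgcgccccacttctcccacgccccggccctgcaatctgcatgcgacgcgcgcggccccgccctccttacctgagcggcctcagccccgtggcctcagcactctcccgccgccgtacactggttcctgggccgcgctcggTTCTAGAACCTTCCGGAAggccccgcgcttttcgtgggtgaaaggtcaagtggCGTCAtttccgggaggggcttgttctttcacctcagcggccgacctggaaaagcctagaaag
A pair of overlapping matches between bases 64084262 and 64084279 of chromosome 9 was read from either side, at -242 and -237 of Hspd1 and at -65 and -60 of Hspe1. A heat shock element was in 0.984% of promoters of genes that rose, 0.462% of those that fell and 0.659% of those of all tested genes.

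Genes of the unfolded protein response of the endoplasmic reticulum included further rises. Of 19 tested members 4 rose (21.1%, against 8.96% of all tested genes) and none fell, with a median difference of 0.25. Syvn1, the ubiquitin ligase that removes misfolded proteins from the endoplasmic reticulum, rose by 0.63 (SE 0.15, limma adjusted p = 0.00298), Herpud1, its scaffold partner, by 0.53 (SE 0.13, limma adjusted p = 0.00563), and the chaperone gene Hspa5 by 0.39 (SE 0.10, limma adjusted p = 0.00453).

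Antioxidant genes were among the largest rises. Of 24 tested genes of oxidative stress defence 8 rose (33.3%, against 8.96% of all tested genes) and 1 fell (4.17%, against 7.73%), although the median of the whole list was -0.00. Single omitted arrays lowered the count of rises to between 4 and 5 (control replicate 1 to 4, control replicate 4 and minimal replicates 1 and 6 to 5). Gsr, which regenerates reduced glutathione, lay at 4.78 to 6.34 (median 5.57) in controls and 6.65 to 7.64 (median 7.23) in exposed rats and rose by 1.52 (SE 0.22, 2.87-fold, limma adjusted p = 1.79e-05) without overlap. Sod2, the superoxide dismutase of mitochondria and also a target of NF-kB, lay at 6.68 to 8.03 (median 6.94) and 8.17 to 9.66 (median 8.78), with no overlap and a rise of 1.70 (SE 0.36, 3.24-fold, limma adjusted p = 0.00105). Prdx3, a mitochondrial peroxiredoxin, rose by 0.75 (SE 0.17, limma adjusted p = 0.00191) and Hmox1, which breaks down heme, by 0.66 (SE 0.18, limma adjusted p = 0.0112), the latter without overlap. Keap1, the adaptor that marks the antioxidant factor Nrf2 for destruction, fell by 0.60 (SE 0.16, limma adjusted p = 0.00963).

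Survival and inflammatory regulators gave mixed counts. Of 23 tested apoptosis regulators 6 rose (26.1%, against 8.96% of all tested genes) and 1 fell (4.35%, against 7.73%), a fall lost without control replicate 1, 3 or 8 or minimal replicate 6 or 7. Mcl1, a short-lived protein of the Bcl-2 family that keeps neutrophils alive, rose by 1.11 (SE 0.26, limma adjusted p = 0.00274), and Birc2, the inhibitor of apoptosis cIAP1, rose by 0.75 (SE 0.17, limma adjusted p = 0.00205) without overlap. Of 15 inflammation and NF-kB genes 3 rose (20%, against 8.96%) and 1 fell (6.67%, against 7.73%), with a median of 0.08. The rises were of Nfkbia, Sod2 and Il1b, the cytokine interleukin 1 beta, by 0.77 (SE 0.26, limma adjusted p = 0.0391), and the fall was of Nfkb2, a subunit of NF-kB, by 0.57 (SE 0.20, limma adjusted p = 0.0475). The call of Il1b was lost without control replicate 1, 2, 4 or 8 or minimal replicate 1, 4, 5, 6 or 7, and that of Nfkb2 without control replicate 1, 3, 5, 6 or 8 or minimal replicate 1, 2, 3, 5, 6 or 7. Of 21 cytokine and chemokine receptors 5 rose (23.8%, against 8.96%) and 1 fell (4.76%, against 7.73%). Single omitted arrays lowered the rises to 3 of the 21 (control replicates 3, 4 and 5 and minimal replicates 1, 2, 4, 5 and 7) or 2 (minimal replicate 6). The receptor that fell was Cxcr5, which guides B cells to follicles, by 0.57 (SE 0.14, limma adjusted p = 0.00345), and its call was lost once each array was scaled by its 75th percentile (-0.46, limma adjusted p = 0.121).

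Interferon-stimulated genes and antigen presentation genes showed no common rise. Of 24 interferon-stimulated genes 1 rose (4.17%, against 8.96% of all tested genes) and 2 fell (8.33%, against 7.73%), with a median difference of -0.15. Irf1, a transcription factor of interferon and NF-kB signalling, rose by 0.80 (SE 0.16, limma adjusted p = 0.000684) without overlap, whereas the antiviral oligoadenylate synthetase-like genes Oasl and Oasl2 fell by 0.69 (SE 0.19, limma adjusted p = 0.00825) and 0.77 (SE 0.16, limma adjusted p = 0.00088). No member of the 10 tested genes of the class II histocompatibility complex was called, and their median was -0.25, though 1 member fell without control replicate 7, minimal replicate 1 or minimal replicate 5.

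**Figure D3:**
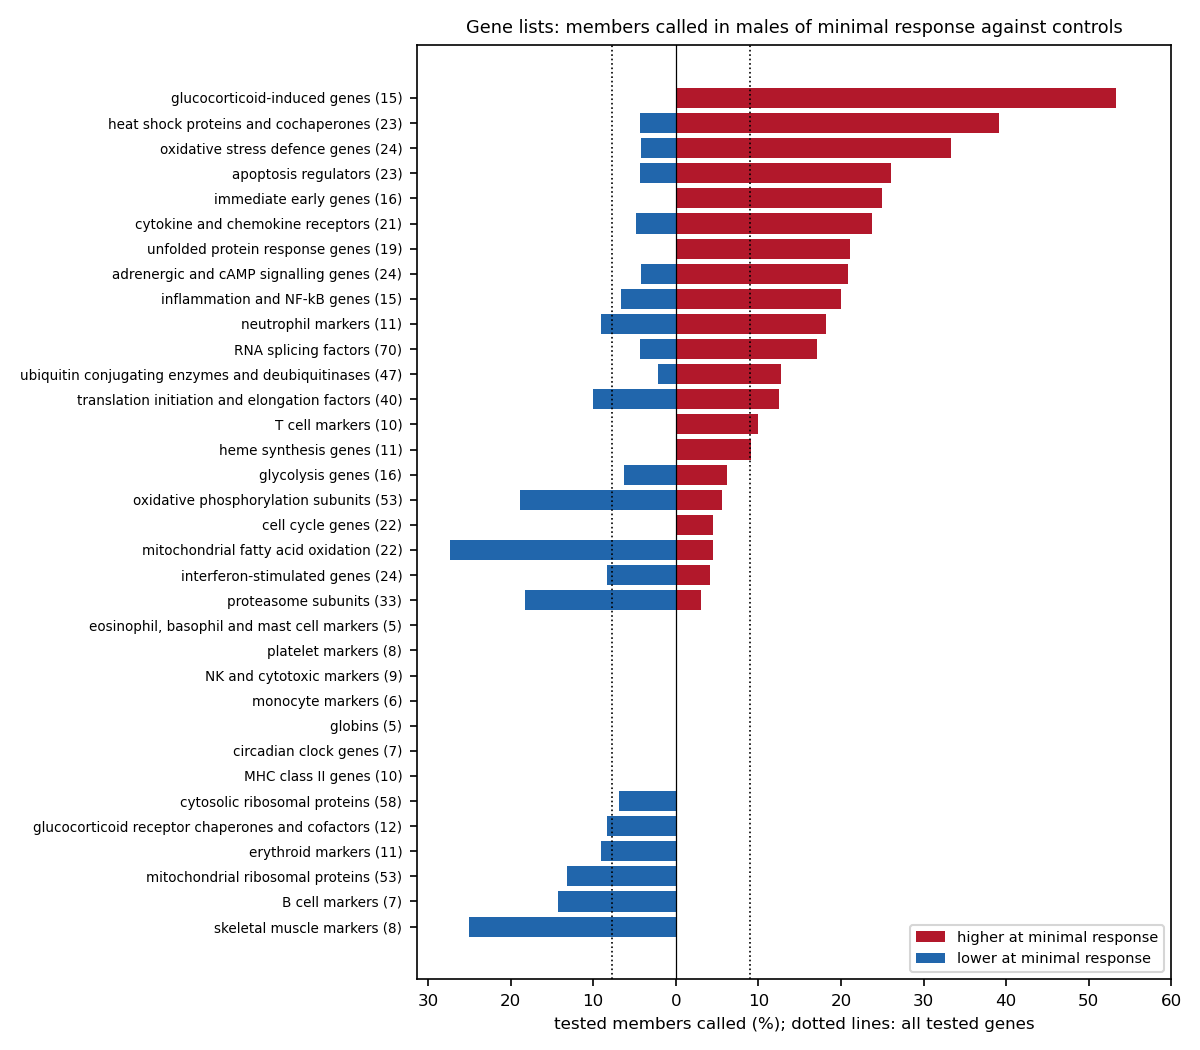
Share of the tested members of each gene list (number tested in brackets) that rose (red, to the right) or fell (blue, to the left) in males of minimal response, for lists with at least 5 tested members. The dotted lines mark the shares over all tested genes, 8.96% higher and 7.73% lower.

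RNA processing factors rose in part. Of 70 tested splicing factors 12 rose (17.1%, against 8.96% of all tested genes) and 3 fell (4.29%, against 7.73%), with a median of 0.10. Without control replicate 4 the rises numbered only 7 of the 70. The heterogeneous nuclear ribonucleoproteins, which coat new transcripts and steer splice choice, held 6 of the rises and 1 of the 3 falls among 17 tested members. Hnrnpf lay at 7.83 to 8.78 (median 8.38) in controls and 9.07 to 10.57 (median 9.59) at minimal response, without overlap, and rose by 1.29 (SE 0.20, limma adjusted p = 4.81e-05). Hnrnpa2b1 rose by 1.06 (SE 0.21, limma adjusted p = 0.000681) and Hnrnph1 by 0.96 (SE 0.21, limma adjusted p = 0.00147), both without overlap. Lsm4, a ring protein of the spliceosome and of messenger decay, fell by 0.65 (SE 0.15, limma adjusted p = 0.00205) without overlap.

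Several components of the mitochondrial respiratory chain fell. Of 53 tested subunits of oxidative phosphorylation 10 fell (18.9%, against 7.73% of all tested genes) and 3 rose (5.66%, against 8.96%), with a median difference of -0.16. The rises numbered 5 without minimal replicate 8. The falls lay in complex I (6 of 25 tested), complex IV (3 of 8) and complex III (1 of 4), and the rises in complex II (2 of 4) and complex III (1 of 4). None of 12 subunits of the ATP synthase was called. Ndufb7, an accessory subunit of complex I, lay at 7.11 to 8.54 (median 7.70) in controls and 6.25 to 7.24 (median 6.87) in exposed rats and fell by 0.88 (SE 0.18, limma adjusted p = 0.000905) with overlap. The core subunit genes Ndufs7 and Ndufs8, which encode carriers of iron-sulphur clusters, fell by 0.62 (SE 0.13, limma adjusted p = 0.000682) and 0.57 (SE 0.11, limma adjusted p = 0.000462), and the complex IV gene Cox5b fell by 0.47 (SE 0.10, limma adjusted p = 0.000923). Uqcrfs1, the Rieske protein of complex III, rose by 0.59 (SE 0.13, limma adjusted p = 0.00215).

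Mitochondrial ribosomes and proteasomes also held more falls than rises. Of 53 mitochondrial ribosomal proteins 7 fell (13.2%, against 7.73% of all tested genes) and none rose (against 8.96%), with a median of -0.14. Among the falls were Mrpl27, down by 0.71 (SE 0.14, limma adjusted p = 0.000472), and Mrpl54, down by 0.70 (SE 0.15, limma adjusted p = 0.00141). Of 33 proteasome subunits 6 fell (18.2%, against 7.73%) and 1 rose (3.03%, against 8.96%), with a median of -0.14. The falls were 2 of 10 beta subunits of the core, 2 of 5 ATPases and 2 of 12 other subunits of the cap. The catalytic beta subunit genes Psmb6 and Psmb7 fell by 0.65 (SE 0.11, limma adjusted p = 0.000157) and 0.63 (SE 0.14, limma adjusted p = 0.00154). Of 47 ubiquitin conjugating enzymes and deubiquitinases 6 rose (12.8%, against 8.96%) and 1 fell (2.13%, against 7.73%). The conjugating enzyme gene Ube2g1 rose by 1.23 (SE 0.21, limma adjusted p = 0.000157).

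Of 58 cytosolic ribosomal proteins 4 fell (6.9%, against 7.73% of all tested genes) and none rose (against 8.96%), with Rps14 down by 0.42 (SE 0.11, limma adjusted p = 0.00914) and Rpl39 by 0.53 (SE 0.14, limma adjusted p = 0.0101). Of 40 initiation and elongation factors and their regulators 5 rose (12.5%, against 8.96%) and 4 fell (10%, against 7.73%). The rises numbered 3 without minimal replicate 1. Eef2k, the kinase that slows elongation, fell by 0.76 (SE 0.21, limma adjusted p = 0.00872). Of 22 cell cycle genes 1 rose (4.55%, against 8.96%) and none fell (against 7.73%), the rise being of the replication clamp gene Pcna. The rises numbered 2 without control replicate 1 or 5 or minimal replicate 2, 3 or 8 and 3 without control replicate 2, and falls numbered 1 without control replicate 6 and 2 without minimal replicate 8.

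Some genes of fat burning fell. Of 22 tested genes of mitochondrial fatty acid oxidation and its control 6 fell (27.3%, against 7.73% of all tested genes) and 1 rose (4.55%, against 8.96%), yet the median of the list was 0.07. Acaa2, the thiolase of the last step of the mitochondrial cycle, lay at 6.75 to 7.55 (median 7.20) in controls and 5.41 to 6.46 (median 6.28) in exposed rats, a fall of 1.06 (SE 0.18, 2.08-fold, limma adjusted p = 0.000125) with no overlap. Adipor2, a receptor for adiponectin that promotes fatty acid oxidation, fell by 0.91 (SE 0.18, limma adjusted p = 0.000599), and Acadvl, the dehydrogenase of very long chains, by 0.51 (SE 0.12, limma adjusted p = 0.00411). Acadm, the medium-chain enzyme, rose by 0.53 (SE 0.14, limma adjusted p = 0.00628). Of 16 glycolysis genes 1 rose (6.25%, against 8.96%) and 1 fell (6.25%, against 7.73%), and the rise was of Ldha, lactate dehydrogenase A, by 0.73 (SE 0.17, limma adjusted p = 0.00314).

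Other large falls were of genes with varied roles. Reep5, which curves the membrane of the endoplasmic reticulum, lay at 5.55 to 7.33 (median 6.17) in controls and 4.63 to 5.35 (median 5.11) at minimal response and fell by 1.26 (SE 0.25, 2.4-fold, limma adjusted p = 0.000566) without overlap. Cpd, carboxypeptidase D, fell by 1.15 (SE 0.19, limma adjusted p = 0.000125), and Nrp1, a co-receptor for semaphorins and VEGF, by 1.15 (SE 0.26, limma adjusted p = 0.00208). Both genes overlapped between the groups. Regulators of chromatin and transcription were also present, with Kdm6b, a demethylase of histone H3 that acts in macrophage responses, down by 0.94 (SE 0.22, limma adjusted p = 0.00322), and Zbtb7a, a repressor of fetal globin genes, down by 0.88 (SE 0.18, limma adjusted p = 0.000654). Kdsr, an enzyme of sphingolipid synthesis, fell by 0.91 (SE 0.17, limma adjusted p = 0.000453) without overlap, and Prkrip1, a spliceosome protein, fell by 0.97 (SE 0.18, limma adjusted p = 0.000379).

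The largest fall among named genes was of a muscle gene whose control values were widely spread. Ckm, muscle creatine kinase, lay at 5.04 to 12.25 (median 8.14) in controls and 4.60 to 7.25 (median 6.09) at minimal response, and its difference was -1.84 (SE 0.66, limma adjusted p = 0.0493). Control replicate 2 gave the highest value, and without it the difference was -1.21 and no longer called (limma adjusted p = 0.177). Tnnt3, fast skeletal troponin T, behaved alike with a difference of -1.22 (limma adjusted p = 0.0385) that became -0.65 (limma adjusted p = 0.137) without that rat. Its call, like that of Ckm, was also lost without minimal replicate 1, 2, 6 or 8, and that of Ckm without control replicate 1, 4, 6 or 7. Pygm, muscle glycogen phosphorylase, fell by 0.94 (SE 0.27, limma adjusted p = 0.0145) and by 0.57 without control replicate 2 (limma adjusted p = 0.0398). Of 8 tested skeletal muscle markers 2 fell (25%, against 7.73% of all tested genes), and the mean deviation of the list ran from -0.76 to 4.60 in controls and from -1.01 to 0.55 in exposed rats. The muscle actinin gene Actn3, not called over all arrays (-1.33, limma adjusted p = 0.0792), passed once control replicate 5 or 8 was left out and stood at -0.70 without control replicate 2 (limma adjusted p = 0.298).

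Markers of the blood cell types were called in small numbers, against 8.96% higher and 7.73% lower over all tested genes. Of 11 tested neutrophil markers 2 rose (18.2%) and 1 fell (9.09%), and of 10 T cell markers 1 rose, Cd8a (10%). Of 7 B cell markers 1 fell, Blk (14.3%), and of 11 erythroid markers 1 fell, Ahsp (9.09%). No marker of monocytes (6 tested), natural killer and cytotoxic cells (9), platelets (8) or eosinophils, basophils and mast cells (5) was called, nor were globin genes (5 tested) or the 2 tested markers of fat and endothelium. Of 11 heme genes 1 rose, which was Hmox1, and none fell, but 3 fell without control replicate 7, 2 without control replicate 8 and 1 without control replicate 6 or minimal replicate 2, 3 or 8. The level of each list was taken as the mean log2 deviation of its members. It ran from -0.09 to 0.38 in controls and from -0.16 to 0.41 in exposed rats for neutrophils, and from -0.28 to 0.50 and -0.11 to 0.30 for monocytes. For T cells it ran from -0.13 to 0.28 and -0.12 to 0.29, for B cells from 0.11 to 0.58 and -0.07 to 0.42, and for natural killer and cytotoxic cells from -0.20 to 0.15 and -0.06 to 0.26. For platelets it ran from -0.44 to 0.54 and -0.37 to 0.54, and for erythroid cells from -0.96 to 0.14 and -0.77 to -0.13. All of these ranges overlapped between the groups. Mmp8, the collagenase stored in neutrophil granules, rose by 0.94 (SE 0.22, limma adjusted p = 0.00259) without overlap and Ncf1, a subunit of the neutrophil oxidase, fell by 0.61 (SE 0.15, limma adjusted p = 0.00419). With the scores of 6 marker lists as covariates 1470 probes were called, 1196 of them among the 1405.

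Each rat of minimal response showed the difference, but not to the same degree. Over the 765 probes that rose, the median distance from the control mean was 0.32 to 0.89 in the minimal rats and -0.24 to 0.22 in the controls. Over the 640 that fell it was -0.66 to -0.40 and -0.16 to 0.07. These probes were chosen by this same contrast, so the gap between the groups is a description. Minimal replicate 8 was closest to the controls at 0.32, and control replicates 6 and 7 closest to the exposed rats at 0.18 and 0.22. The first principal component of the 24 male arrays, which used all tested probes, held 26.1% of the variance and placed controls between -27.25 and -1.32 and minimal rats between -0.08 and 25.37. The males of extreme response, also exposed, spread beyond both groups, from -29.64 to 34.46.

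**Figure D4:**
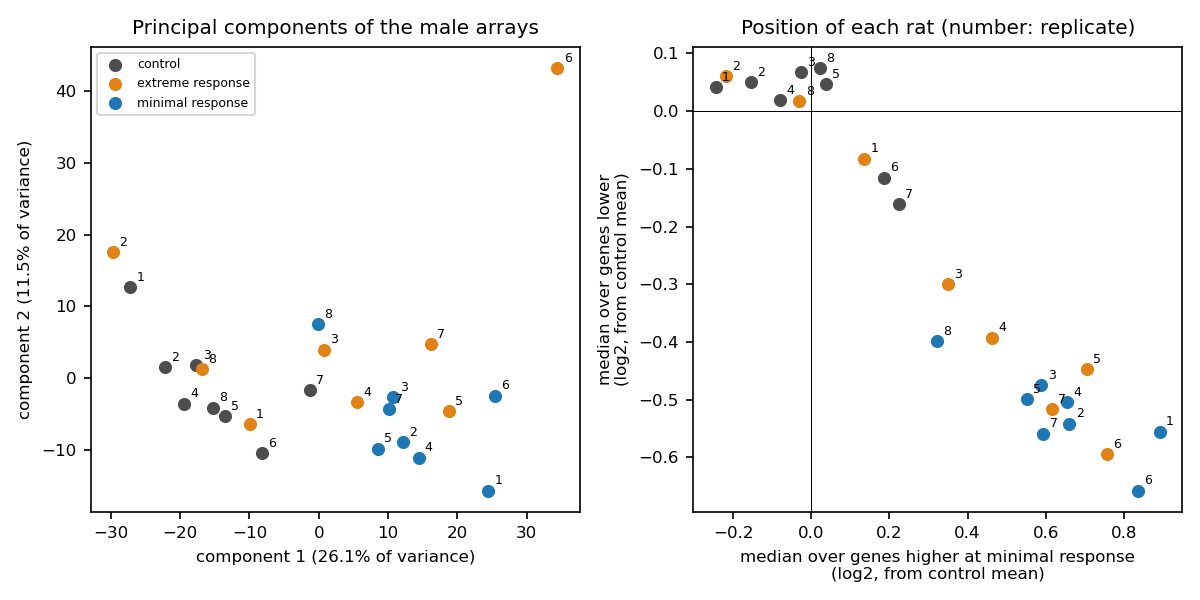
Left, the first and second principal components of the 24 male arrays over the tested probes, in arbitrary units. Right, the median log2 distance of each rat from the control mean over the 765 probes that rose (x axis) and the 640 that fell (y axis), with the replicate number beside each point. Extreme replicates 1, 2 and 8 lie at 0.13, -0.22 and -0.03 on the x axis of the right panel, and the other extreme rats between 0.35 and 0.76.

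Males of extreme response, which went through the same exposure, were set beside these values. Their replicate 6 stood apart on the second principal component, at 43.2. Both exposed groups were compared with the same 8 controls, so the results below are given side by side and not as independent evidence. Over the probes that rose at minimal response the median difference was 0.62 at minimal and 0.35 at extreme response, and over those that fell it was -0.53 and -0.29. These probes and genes were chosen by the minimal contrast, so smaller differences at extreme response follow in part from that choice. For Dusp1 the values of extreme rats were 7.60 to 9.40 (median 8.86), 0.73 above the controls (SE 0.29, limma adjusted p = 0.2), and for Tpm4 7.82 to 10.17 (median 9.27), 0.77 above them (SE 0.26, limma adjusted p = 0.133). Gsr differed by 0.93 (SE 0.22, limma adjusted p = 0.0614) and Acaa2 by -0.61 (SE 0.18, limma adjusted p = 0.0958). By limma no probe was called between extreme males and controls, with 1449 at an unadjusted p below 0.05 and a smallest adjusted p of 0.0614.

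The direct test of extreme against minimal response called 13 of 9416 probes (0.138%), 10 higher and 3 lower in extreme rats, with 1190 at an unadjusted p below 0.05. Psmb6 was 0.54 higher (SE 0.11, limma adjusted p = 0.0427), and so were the vesicle transport genes Trappc1, by 0.51 (SE 0.11, limma adjusted p = 0.0427), and Stx8, by 0.51 (SE 0.11, limma adjusted p = 0.0427). Gfus, an enzyme of fucose synthesis, was 0.48 higher (SE 0.10), Pih1d1, a cochaperone adaptor, 0.75 (SE 0.17), and Eef1akmt1, a methyltransferase of elongation factor 1A, 0.52 (SE 0.12), with limma adjusted p of 0.0427, 0.0471 and 0.0471. Saraf, a brake on store-operated calcium entry, was lower in extreme rats, with a difference of -0.52 (SE 0.12, limma adjusted p = 0.0471). These calls were not firm, since leaving out single rats gave 0 to 94 of them. There were 0 by limma (803 to 1070 at an unadjusted p below 0.05) without minimal replicate 4 or 7 or extreme replicate 2 or 8, 94 without extreme replicate 5 and 23 without extreme replicate 6. The omission of minimal replicate 3 alone left the count within 1.5 times, at 14. An adjusted p above the threshold does not show that the classes were alike. For Dusp1 the difference between the classes was -0.89 (SE 0.29, limma adjusted p = 0.155), and for Cxcr4 -0.78 (SE 0.30, limma adjusted p = 0.244).

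The same contrast in females gave other values for many of these genes. The test of the male minus female difference called 1010 of 9416 probes (10.7%), 480 positive and 530 negative, and 330 of the 765 probes that rose in males (43.1%) and 244 of the 640 that fell (38.1%) were among them. The male arrays serve both tests, so an excess among these probes follows in part from how they were chosen. Dusp1 rose by 1.62 in males and fell by 1.72 in females (SE 0.31, limma adjusted p = 0.000124), a difference of 3.34 (SE 0.43, limma adjusted p = 2.47e-06). Cebpb, a transcription factor of myeloid cells, differed by 0.82 in males (SE 0.22, limma adjusted p = 0.00788) and -1.77 in females (SE 0.24, limma adjusted p = 2.31e-06). Rhob, a small GTPase, differed by 0.70 (limma adjusted p = 0.0165) and -1.23 (limma adjusted p = 0.000112), and Dusp6, a phosphatase of ERK, by 1.03 (limma adjusted p = 0.00148) and -1.08 (limma adjusted p = 0.00229). The size of these falls in females depended on which female controls were fitted, as given below.

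Over the 46 arrays, other genes rose in both sexes, though the size of the rise in females depended on 4 of the 6 female controls. Sod2 differed by 1.85 in females (SE 0.38, limma adjusted p = 0.000811), Tpm4 by 1.34 (SE 0.29, limma adjusted p = 0.00111) and Rgs18 by 1.57 (SE 0.34, limma adjusted p = 0.00147), and the difference between the sexes did not pass for Sod2 (-0.15, limma adjusted p = 0.898), Tpm4 (0.41, limma adjusted p = 0.548) or Rgs18 (0.11, limma adjusted p = 0.915). Most calls between the sexes were lost once 4 of the 6 female controls were left out, and 21 were called with cell marker scores as covariates. Without female control replicates 1, 3, 4 and 5, which earlier work on these data singled out by their values, 1 probe was called and 1066 had an unadjusted p below 0.05, and only 2 female controls were left. The difference for Dusp1 was then 1.78 (SE 0.41, limma adjusted p = 0.18), and for Cebpb 1.78 (SE 0.37, limma adjusted p = 0.0724). For Sod2 it turned from -0.15 to 1.37 (SE 0.54, limma adjusted p = 0.322), and it moved to 1.13 for Rgs18 (SE 0.53, limma adjusted p = 0.412) and 1.45 for Tpm4 (SE 0.43, limma adjusted p = 0.231). The sizes of the male differences were unchanged in the fit without those female controls, which kept the same normalized values. Their SE and p do draw on the female arrays, through the shared estimate of the spread. The rises of Sod2, Rgs18 and Tpm4 in females, and the falls of Dusp1 and Cebpb, were therefore smaller in that fit. For Dusp1 little of the fall was left, as the difference of 1.78 was close to the rise in males alone.

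**Figure D5:**
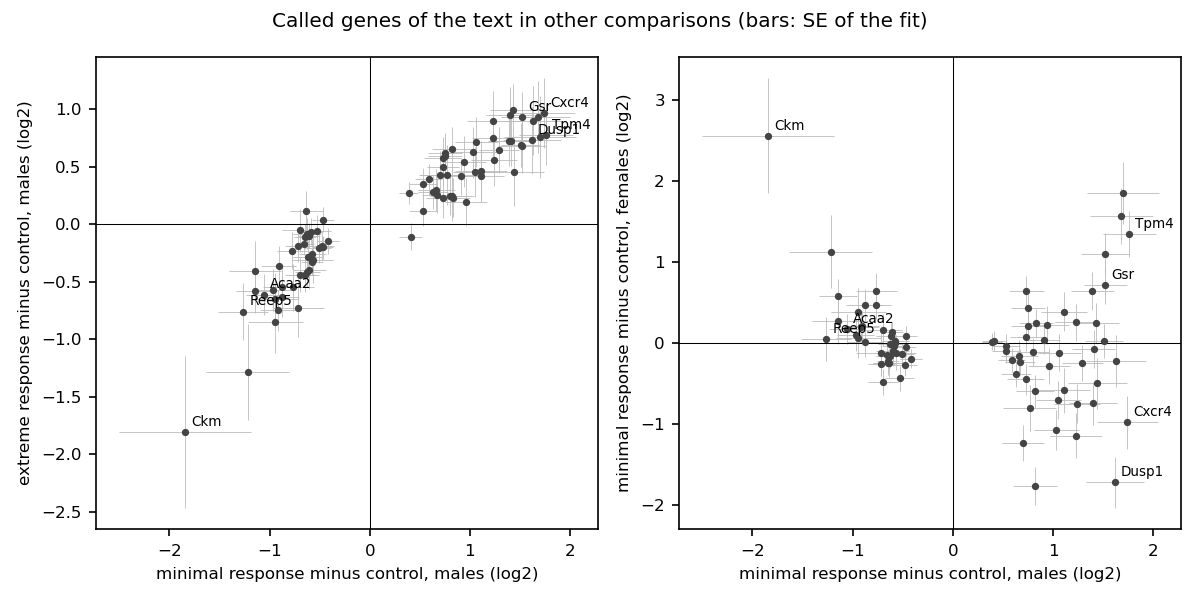
Called genes named in the text, placed by their log2 difference between minimal response and control in males (x axis) and by 2 other differences (y axis), extreme response minus control in males on the left and minimal response minus control in females on the right, with bars for the SE of the fit. The left panel shares its controls between the axes and its genes were chosen by the x axis, so its slope is a description. In the right panel, fitted over the 46 arrays, Dusp1 and Cxcr4 lie below 0 while Tpm4 lies above it.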

How the data were processed

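The authors deposited 1 non-normalized intensity and 1 detection p-value per probe and array, per the file headers, and a table of log2 values that equalled quantile-normalized raw intensities to within 5e-09. No source used here gives the scanner software, its settings, the chip or the hybridisation batch, so no batch was fitted. Symbols came from GEO's platform annotation, which gave 13793 of 22523 probes 1 symbol, none several and 8730 none, and 13752 probes were matched to RefSeq by gene identifier.

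Intensities were corrected by the normexp model of limma (offset 16), quantile normalized and put on the log2 scale. Female control replicate 2 was left out because its array gave no signal (highest intensity 83.2), so that 46 of 47 arrays remained. Probes with a detection p below 0.05 on at least 7 arrays were tested, 9416 in all. A model of 6 group means was fitted to them by limma 3.58.1 (lmFit, then eBayes, under R 4.3.3), which left 40 residual degrees of freedom. The p-values were adjusted by Benjamini and Hochberg over all tested probes, and the procedure was tested on simulated data. For the 106 symbols with several tested probes, the probe of highest mean is given, and 1 such symbol had calls in opposite directions. The number of arrays limits precision. Each array carries its own rat identifier in the labels, so p-values measure spread between animals. The titles repeat 4 rat numbers between the male controls and the minimal group, where the identifiers of the controls carry a prefix that those of exposed rats lack. The highest correlation between any 2 arrays was 0.986.

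Genes were named by a rule: the 25 largest rises and 25 largest falls among called probes with a symbol, called members of 36 gene lists, up to 4 members of each list with the smallest p, and Fkbp5, Tsc22d3, Sgk1, Klf9 and Per1, and for the other comparisons also the 10 called probes of smallest p. The members and lists were chosen with earlier results of these data known. Among them, the Y-linked and Xist list had no probe. Promoters were taken from RefSeq (GRCr8) for genes matched by identifier. The alternatives changed the background correction, normalization, filter, covariates, weights and arrays.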

Additional observations from a re-analysis of the deposited data

Results flagged for a closer look

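In 250 groups of 8 rats, formed by 90 named genes and 35 gene lists, 11 held a rat far from the others by Dixon's criterion, and chance flags about 1 in 20 groups. Control replicate 2 was the highest for 3 muscle genes, with log2 intensities of 10.95 for Actn3, 10.53 for Tnnt3 and 8.93 for Pygm, and for the score of the skeletal muscle markers, at 4.60. Among controls, Cox5b reached 10.36 in replicate 8 and Psmb6 was down at 9.89 in replicate 6. Among rats of minimal response, replicate 8 was the lowest for Zfp36 (6.86) and Saraf (7.34), replicate 1 the highest for Hnrnpf (10.57), replicate 4 the highest for Klf9 (8.35) and replicate 2 the lowest for Kdsr (4.54).

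For 55 of the 90 genes the male minus female difference of minimal response minus control passed by limma (adjusted p below 0.05). In log2 units, 30 genes were more positive in males, by 3.341 for Dusp1, 2.724 for Cxcr4, 2.589 for Cebpb, 2.382 for Zfp36, 2.147 for Rgs2, 2.113 for Dusp6, 1.994 for Nfkbia, 1.943 for Ptprc, 1.934 for Rhob, 1.849 for Fos, 1.848 for Atp6ap2, 1.76 for Txnip, 1.698 for Mcl1, 1.571 for Il1b, 1.539 for Hnrnpf, 1.487 for Ppp1cc, 1.483 for Rab1a, 1.42 for Klf4, 1.249 for Hnrnph1, 1.187 for Hnrnpa2b1, 1.186 for Cacybp, 1.178 for Anxa1, 1.014 for Syvn1, 0.9768 for Ube2g1, 0.9132 for Irf1, 0.9115 for Tsc22d3, 0.8794 for Dnaja2, 0.8235 for Hmox1, 0.7984 for Uqcrfs1 and 0.6325 for Herpud1. The other 25 were more negative in males, at -4.403 for Ckm, -2.647 for Actn3, -2.345 for Tnnt3, -1.727 for Cpd, -1.418 for Nrp1, -1.405 for Eef2k, -1.351 for Ndufb7, -1.326 for Pygm, -1.311 for Reep5, -1.238 for Oasl2, -1.227 for Acaa2, -1.115 for Kdsr, -1.107 for Adipor2, -1.069 for Prkrip1, -1.003 for Kdm6b, -0.8901 for Zbtb7a, -0.8552 for Oasl, -0.7432 for Trappc1, -0.6963 for Ncf1, -0.6159 for Ndufs7, -0.6009 for Cxcr5, -0.5762 for Ndufs8, -0.5579 for Stx8, -0.553 for Eef1akmt1 and -0.507 for Gfus. Without female control replicates 1, 3, 4 and 5 none of the 55 passed after adjustment by limma, 41 had an unadjusted p below 0.05 and 54 kept their sign, the exception being Fos.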

How the results depend on the processing

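The count of called probes between minimal response and control in males was 1405 and stayed between 1074 and 1988 under every alternative run except the fit of all 47 arrays, with the array without signal, which gave 316 (193 higher and 123 lower). Leaving out single rats gave 1104 to 1554. Of 83 called genes named in the text, 35 kept their call under all 32 alternatives and none changed sign. The fit without background correction and that of the deposited log2 values are in effect the same alternative, counted separately among the 32, and each called 1426 probes. The fit of all 47 arrays lost 47 calls. Beside it, Cxcr5 lost its call under scaling to the 75th percentile, and Ckm, Tnnt3, Ncor1, Nfkb2 and Il1b lost theirs under 20, 15, 19, 15 and 14 of the 32 alternatives. Without background correction 35 of the 83 differences were smaller by over 1.5 times, as for Rgs18 (0.73), Hmox1 (0.26) and Cxcr5 (-0.22), and with an offset of 50 it was 12. The glucocorticoid-induced genes that rose numbered 7 to 8 and the heat shock proteins and cochaperones 9 to 11 over the alternatives, and 2 and 3 with all 47 arrays. Single calls in a list were less firm over the 16 omissions of single rats: the fall of a B cell marker was lost in 12 of them, that of a receptor cofactor changed in 12, that of an erythroid marker was lost in 8, the rise of a proteasome subunit in 10 and that of a T cell marker in 6, and the neutrophil rises became 1 in 11. The fall in cyclic AMP signalling was lost without control replicate 2 or 5, and falls of splicing factors numbered 5 without control replicate 6.

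The difference between the sexes, 1010 probes, became 436 with all 47 arrays, 21 with cell marker scores as covariates and 1 without 4 female controls, and 778 to 1250 without single rats. Scaling to the 75th percentile shifted the median of all its differences to 0.42 and its calls to 780 positive and 364 negative, against 480 and 530. Extreme against minimal response, 13 probes, gave 8 without a filter, 3 under the strictest filter on detected arrays, 37 and 24 with brightness or detected probes as a covariate and 2 over the 24 male arrays. By limma it gave 0 under scaling to the 75th percentile (1077 at an unadjusted p below 0.05), with all 47 arrays (499), with cell marker scores (1099) and over the 16 arrays compared (1003), and 0 to 94 without single rats. The causes of these shifts were not tested.

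The labels give replicate numbers from 1 to 8 in each group, and to 7 in female controls. The deviations of same-numbered control and minimal rats correlated between -0.53 and 0.16, above 0.1 in 2 of 8 pairs, and 1 of 8 controls correlated best with its own number, so these numbers were not taken to pair the rats. The 4 pairs of male control and minimal rats whose titles share a rat number correlated between -0.53 and 0.19, a check added after seeing the data. With the replicate number as a block the count was 1419 for minimal response against control, 836 for the difference between the sexes and, by limma, 0 (1179 at an unadjusted p below 0.05) for extreme against minimal response. Without single rats, an alternative added after seeing the data, the difference in detected probes ran from 112 to 405 and that in the 95th percentile of intensity from -51.1 to 25.4. Signal over background limits the dim probes, and a probe without a symbol could not be placed in any list.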
